A study of Mus musculus with 36 samples.

Results

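The DEAD-box (Ddx) and DEAH-box (Dhx) RNA helicases were followed through ribosome profiling of neonatal mouse brain. All genes of the count table whose symbol starts with Ddx or Dhx and a digit were taken, with Ddx3x and Ddx3y left out by the rule, which gave 51 genes of 16614 (35 Ddx and 16 Dhx). Whole brains of mice 5 days old, wild type (WT, C57BL/6) or FMR1 KO, with 10 brains pooled for a preparation, were homogenized and separated on a sucrose gradient into fraction 5/6, which holds ribosome clusters that stay in the gradient, and the pellet, which holds the heaviest clusters and is taken as the source of neuronal RNA granules. The stretches of mRNA protected by ribosomes from nuclease (ribosome-protected fragments, RPFs) were sequenced from both, and the RNA of the starting homogenate was sequenced beside them. FMR1 KO mice lack FMRP in all cells, so the genotype is not specific to neurons. The standard nuclease preparation used a buffer with 10 mM MgCl2 and the low nuclease preparation used 2.5 mM MgCl2 with digestion at low temperature. Pellet, fraction 5/6 and RNA in 2 genotypes and 2 preparations made 12 groups with 3 libraries each, 36 in all.

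Helicases of these families use ATP to open short RNA duplexes or to strip proteins from RNA. Different members serve separate steps in the life of an RNA, from ribosome assembly in the nucleolus and splicing in the nucleus to export, translation, storage and decay in the cytoplasm, and several of them (Ddx1, Ddx5, Ddx6, Dhx9, Dhx36) have been found in neuronal RNA granules or processing bodies as proteins. The values here are of the mRNAs that encode them, and of ribosomes on those mRNAs, not of the proteins.

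The standard RPF libraries held 6765065 to 40174168 counts, of which 36.7 to 63.4% fell on 1 gene, Cdk8, so levels are given as CPM (counts scaled to the library total without Cdk8). The standard RNA libraries held 112249206 to 147216378 counts, the low nuclease RPF libraries 23634940 to 62310787 and the low nuclease RNA libraries 41586791 to 141505786. In 3 of the 6 low nuclease RNA libraries, namely replicate 2 of WT and replicates 2 and 3 of FMR1 KO, over 82% of counts fell on 10 genes, so occupancy below uses the standard RNA. In the standard preparation, Fmr1 was at 64.6 to 67.8 CPM in the WT pellets and 4.79 to 4.93 CPM in the FMR1 KO pellets. It was 68.6 to 100 CPM in WT fraction 5/6 replicates 1 and 2 but 3.17 CPM in the library labelled WT fraction 5/6 replicate 3, which goes against that label, and the enrichment counts, the fraction 5/6 genotype counts and the named helicases that rest on this library are given with and without it. The summed level of 5 neuronal markers (Tubb3, Map2, Snap25, Stmn2, Dcx) was 5710 to 8740 CPM in the pellets and 7015 to 8158 CPM in the RNA. The 4 globin genes summed to 3.27 to 14.2 CPM in the pellets and 224 to 523 CPM in the RNA, so the mRNA of blood cells was lower in the pellet. The 3 oligodendrocyte markers summed to 25.1 to 73.4 CPM and 141 to 421 CPM in the same order, and the part of these cell types in the occupancy values was not tested. In these bulk samples fewer cells of a type and less RNA per cell cannot be told apart.

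Peaks are the places on an mRNA where RPF coverage rises to a maximum, listed per library for the 12 standard RPF libraries. A peak was matched between libraries when the middles of the listed intervals lay within 6 nt. Only 4 peaks on helicase mRNAs were matched in all 6 pellet libraries, and all 4 lay in the coding sequence of Ddx5, an RNA helicase of splicing and transcription (ENSMUSG00000020719, chr11:106780355-106789185, minus strand, GRCm38). Their windows of 29 nt are shown because they are the positions on a helicase mRNA where peaks recurred in every pellet library. They were read from the GENCODE M21 transcript ENSMUST00000021062, which has 13 exons and 615 codons, and capitals mark the 3 nt around the middle of the peak.
Ddx5 codon 245, exon 7, chr11:106785198-106785226: aagaacaacttacCTTgtccttgatgaag
Ddx5 codon 269, exon 7 and across the next junction, chr11:106785044-106785155: aaattgtggatcaAATaagacctgatagg
Ddx5 codon 329, exon 9 and across a junction, chr11:106784508-106784891: aaaggatgaaaagCTTattcgtctgatgg
Ddx5 codon 571, exon 13, chr11:106781972-106782000: ttaccagaacggtTATgatagcactcagc

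The heights of the Ddx5 peak at codon 245 were 220, 133 and 122 in the WT pellets and 207, 115 and 179 in the FMR1 KO pellets. The peak at codon 269 reached 271, 155 and 142 in WT and 275, 100 and 202 in FMR1 KO. The peaks at codons 329 and 571 reached 97 to 177 and 77 to 210 over the 6 libraries. WT and FMR1 KO heights overlapped at each of the 4 positions, and heights are coverage that was not scaled to library depth. The peaks at codons 245, 269 and 571 were also matched in 6 of 6 fraction 5/6 libraries and that at codon 329 in 5 of 6. These 6 include the library labelled WT fraction 5/6 replicate 3, which goes against its label. With or without it, none of the 4 peaks was seen in the pellet alone. The letters TGGA were in the window at codon 269 and AGGA in that at codon 329, read on the transcript strand. Among all 251 peaks matched in the 6 pellets over all mRNAs of the table, 24.7% of windows held TGGA and 21.9% held AGGA, so 1 of 4 each is near that share.

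Ddx5 was 1 of 51 helicase mRNAs with a matched peak (1.96%), against 167 of 16523 mRNAs in all (1.01%). Peaks without the demand for a matched place were common. A peak was listed in at least 1 pellet library on 33 of 51 helicase mRNAs (64.7%), against 28.9% of all mRNAs. In each of the 6 pellet libraries a peak was listed on 18 (35.3%), against 13.4%. These shares were not compared at like RPF levels, and the part of the level in them was not tested. Those 18 were Ddx1, Ddx10, Ddx19a, Ddx21, Ddx23, Ddx24, Ddx25, Ddx27, Ddx28, Ddx5, Ddx54, Ddx56, Dhx15, Dhx29, Dhx36, Dhx38, Dhx40 and Dhx8. A library listed 125 to 261 helicase peaks on 16 to 33 of the mRNAs, and 99 to 100% of them lay in coding sequence, against 96.5 to 98.5% of all peaks placed. Ddx25, a helicase best known from the testis, carried the most peaks (272 over the 12 libraries), followed by Ddx21 with 182, Ddx5 with 162, Dhx29 with 156 and Dhx36 with 142. Dhx9 carried 0, 1 and 0 peaks in the WT pellets and 1, 8 and 1 in the FMR1 KO pellets. It carried 7 and 18 in WT fraction 5/6 replicates 1 and 2 and 11, 6 and 11 in FMR1 KO fraction 5/6. The library labelled WT fraction 5/6 replicate 3 had 1. Peak numbers also differed between libraries of unlike depth. Without Cdk8, WT pellet replicate 1 held the most counts (21274803) and FMR1 KO fraction 5/6 replicate 3 the fewest (4284209). In that order Dhx36 had 3 and 28 peaks and Ddx42 had 0 and 21, while Dhx38 had 22 and 0 and Dhx40 had 17 and 0. The part of depth in the peak numbers and in their order between helicases was not tested. For 16 helicases no peak was listed in any library on the count table transcript, among them Ddx6, Ddx17 and Dhx57. These stood at 16, 34.6 and 24.6 RPKM in the WT pellet, while Ddx10 with 112 peaks stood at 13.8 RPKM. RPKM divides by exon length, of which 18, 25.5 and 68.9% was coding in Ddx6, Ddx17 and Dhx57 and 83.9% in Ddx10. Only peaks on the 1 transcript that the count table names for each gene were taken. In a library, 81.8 to 87.2% of all listed peaks lay on such transcripts. Peaks listed on another transcript of a helicase gene are not analysed here.

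**Figure D1:**
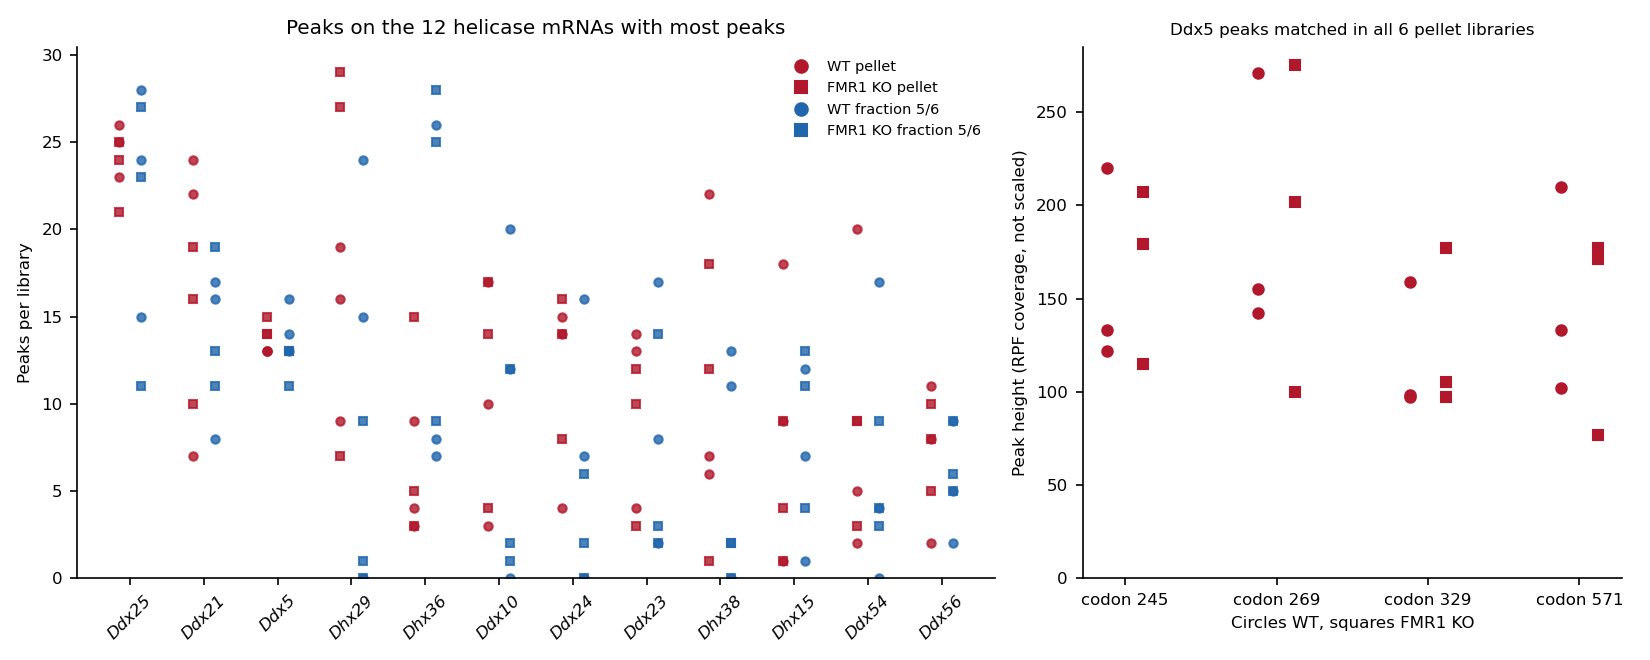
Left, number of listed peaks per library (y axis) on the 12 helicase mRNAs with most peaks, 1 point per standard RPF library, circles WT, squares FMR1 KO, red pellet, blue fraction 5/6. Right, height (RPF coverage, not scaled to depth) of the 4 Ddx5 peaks matched in the 6 pellet libraries, at codons 245, 269, 329 and 571; WT and FMR1 KO points overlap at each.

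Levels among the helicases spanned a wide range. In the WT RNA, per kilobase of exon (RPKM, mean of 3 libraries), Ddx5 was highest at 82, followed by Ddx39b at 55.4, which acts in splicing and mRNA export, Ddx6 at 36.2, which represses translation and promotes decapping, Ddx17 at 33.9, the close relative of Ddx5, Ddx1 at 24, Ddx42 at 19.6, Ddx49 at 17.3 and Dhx32 at 16.9. In the WT pellet the order per kilobase was Ddx5 at 100 RPKM, Dhx9 at 69, Ddx39b at 68, Ddx1 at 49.7, Ddx24 at 49.4, Ddx42 at 34.9 and Ddx17 at 34.6. The place of Ddx24 rested on replicate 1, with 104 RPKM beside 20.7 and 23.6 RPKM in the other two. Ddx6 went from rank 3 in the RNA to rank 13 in the pellet. RPKM divides by the whole exon length, of which 18% was coding in Ddx6, against a median of 48.5% over the helicases. The part of this in the pellet rank was not tested. The lowest 5 in the WT RNA and in the WT pellet were Ddx4 and Ddx43, helicases of the germ line, and Ddx58, Dhx58 and Ddx60. The last 3 sense viral RNA, and the 5 were singled out after their values were seen. The helicases together made up 3284 ± 311 CPM of the WT RNA, 4439 ± 507 CPM of the WT pellet and 3988 ± 1038 CPM of WT fraction 5/6 (SD, n = 3 each). The FMR1 KO sums were 3409 ± 190, 4265 ± 1090 and 5154 ± 698 CPM in the same order. These sums depend on the scale, and on the TMM scale of edgeR, on which the tests below rest, the means were 1447, 4308 and 3945 CPM in WT and 1555, 4163 and 4357 CPM in FMR1 KO. In fraction 5/6 the sum was 4206 and 2857 CPM in WT replicates 1 and 2, 4900 CPM in the library labelled WT fraction 5/6 replicate 3 and 5473, 4353 and 5636 CPM in FMR1 KO. Of the 5473 CPM, 2258 CPM were Ddx24, which stood alone in that library. Without Ddx24, a choice made after its values were seen, the sums were 4104, 2792 and 4477 CPM in the same order of WT libraries and 3214, 4243 and 5488 CPM in FMR1 KO, and the groups overlapped with and without the library that goes against its label.

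**Figure D2:**
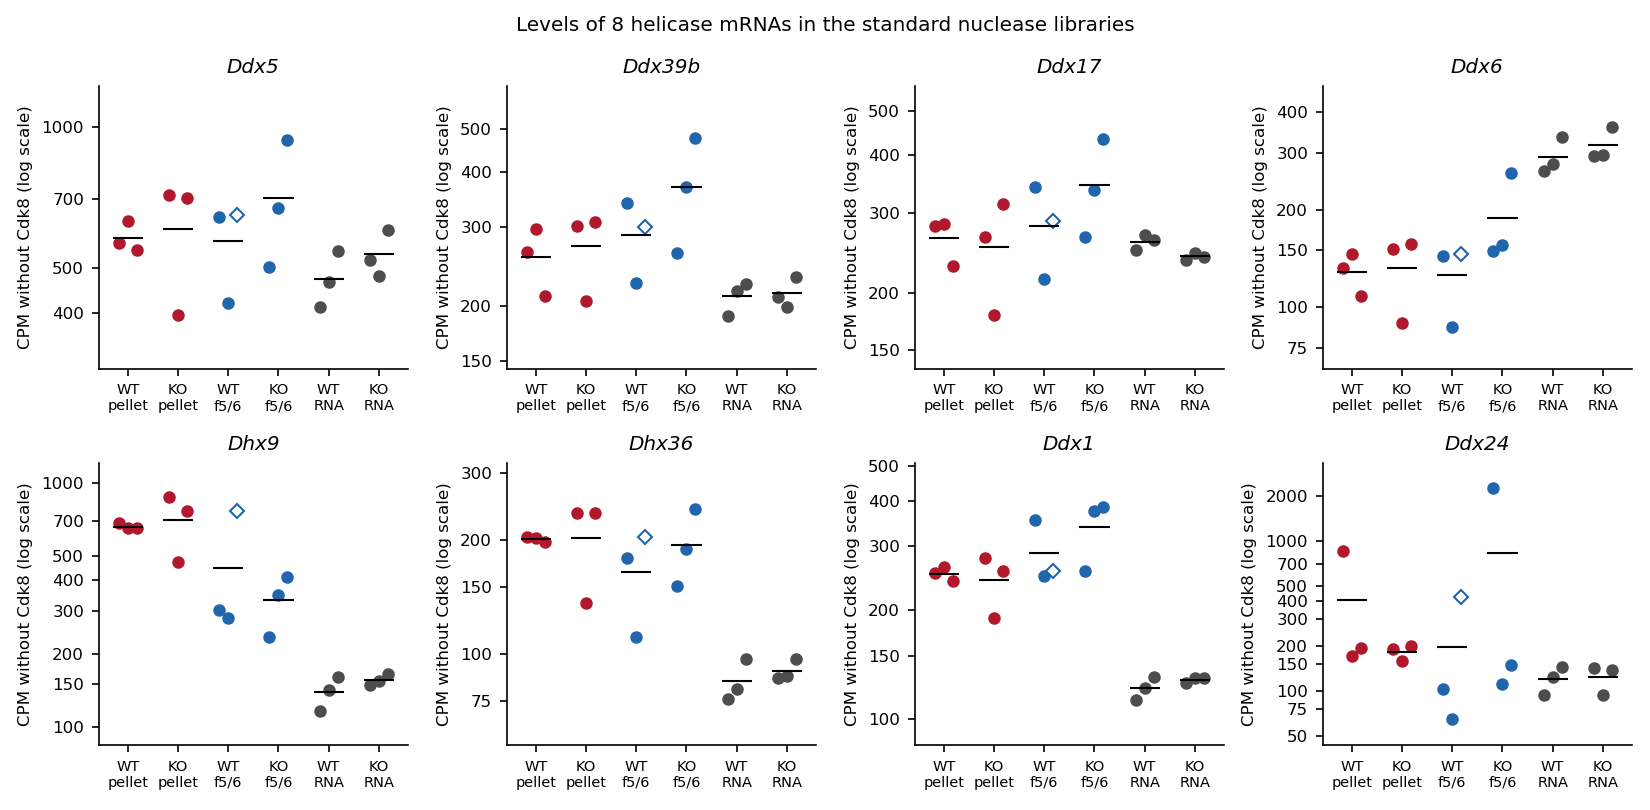
Level in CPM without Cdk8 (y axis, log scale) of 8 helicase mRNAs in the 18 standard nuclease libraries, red pellet, blue fraction 5/6 (f5/6), grey RNA, with bars at the mean of 3 and an open diamond for the library labelled WT fraction 5/6 replicate 3. Dhx9 lies at 475 to 876 CPM in the pellets and 117 to 165 CPM in the RNA, while Ddx6 lies lower in the pellets than in the RNA.

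Occupancy, the pellet RPF level against the RNA level, asks which mRNAs are held by ribosomes in the pellet beyond what their abundance gives. On the TMM scale of edgeR, 40 of 51 helicases were higher in the WT pellet than in WT RNA and 2 were lower (edgeR's quasi-likelihood test, Benjamini-Hochberg adjusted p under 0.05), against 31.2% and 34.3% of all genes tested. The median log2 occupancy was 1.15 for the helicases and -0.11 for all genes. In FMR1 KO, 37 of 50 were higher and 2 lower, against 31.9% and 35.2% of all genes, with medians of 1.11 and -0.07. The same 37 were higher in both genotypes and the same 2, Ddx18 and Ddx19b, lower in both. Ranked among all genes by occupancy, the middle helicase stood at percentile 82.6 in WT and 81.1 in FMR1 KO.

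Pellet and RNA libraries differ in their whole makeup, and the scale matters. Scaled by library size without Cdk8, the median of all genes moved by -1.16 in WT and -1.10 in FMR1 KO, and the helicase median moved with it, since a scale shifts every gene of a library alike. On that scale 12 helicases were higher and 16 lower in WT, where 8.7% of all genes were higher and 67.9% lower. In FMR1 KO 10 were higher and 13 lower, where 7.81% of all genes were higher and 62.4% lower. Higher on both scales in both genotypes were Dhx9, Dhx36, Ddx10, Dhx15, Ddx1, Ddx20, Ddx42, Ddx21, Dhx29 and Dhx57, and lower on both were Ddx18 and Ddx19b.

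Dhx9 (RNA helicase A, which opens RNA duplexes and RNA-DNA hybrids; ENSMUSG00000042699, chr1:153455758-153487660, minus strand) had the largest occupancy. Its level was 682, 655 and 651 CPM in the WT pellets and 117, 142 and 161 CPM in WT RNA. In FMR1 KO it was 876, 475 and 765 CPM in the pellets and 149, 154 and 165 CPM in RNA. No pellet library overlapped an RNA library. The log2 occupancy was 3.41 (SE 0.17, edgeR adjusted p = 6.48e-06) in WT and 3.26 (SE 0.16) in FMR1 KO, and 2.24 and 2.18 when scaled by library size. Dhx9 stood at percentile 97.9 of all genes in WT and 97.0 in FMR1 KO.

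Of the 6 helicases listed for cytoplasmic translation and granules (Ddx1, Ddx6, Dhx9, Dhx29, Dhx36, Dhx57), 5 were higher in the pellet in each genotype, with a list median of 2.06 in WT and 1.93 in FMR1 KO. Dhx36, which unwinds G-quadruplexes (chr3:62468013-62507004, minus strand), was at 204, 202 and 197 CPM in the WT pellets and 76.1, 80.7 and 97 CPM in WT RNA, a log2 occupancy of 2.41 (SE 0.13). Ddx1, which is known from neuronal transport granules and from tRNA ligation (chr12:13216973-13249213, minus strand), was at 253, 263 and 241 CPM against 113, 122 and 131 CPM, with 2.21 (SE 0.11). Both were above every RNA library in every pellet library, and their FMR1 KO occupancies were 2.25 and 2.02. Dhx29, which helps the small ribosomal subunit through structured leaders (chr13:112927454-112969432, plus strand), had 1.91 in WT and 1.85 in FMR1 KO. Dhx57 (chr17:80238309-80290476, minus strand) had 1.80 and 1.75.

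Ddx6 (chr9:44604892-44640731, plus strand) was the member of that list that did not pass. Its level was 132, 146 and 108 CPM in the WT pellets and 263, 276 and 335 CPM in WT RNA. In FMR1 KO it was 151, 89.1 and 157 CPM in the pellets and 293, 295 and 359 CPM in RNA. Every pellet library was below every RNA library on the CPM scale in this standard preparation, whereas the log2 occupancy on the TMM scale was -0.03 (SE 0.13) in WT and -0.17 (SE 0.12) in FMR1 KO, near the median of all genes. With the low nuclease RNA in place of the standard RNA, Ddx6 turned to 0.64 in WT and 0.82 in FMR1 KO. Against Ddx5 in the same library, a ratio that needs no scaling, the count of Ddx6 was 0.198 to 0.266 in the 12 pellets. It was 0.206 to 0.296 in 11 fraction 5/6 libraries and 0.564 to 0.637 in the 6 standard RNA libraries. In the library labelled WT fraction 5/6 replicate 3, which goes against its label, it was 0.225. Relative to Ddx5, RPFs on Ddx6 were thus lower than its RNA in pellet and fraction 5/6 alike. Ddx5 was itself called higher in the pellet than in RNA in both genotypes on the TMM scale, which lowers this ratio in the pellets. The ratio alone does not show that RPFs on Ddx6 were few for its RNA. The pair was chosen after the values were seen.

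Nuclear helicases were also among those with high occupancy. Of 13 listed for pre-mRNA splicing, 12 were higher in the pellet in either genotype, with medians of 1.44 and 1.26. Dhx15, which takes apart spent spliceosomes, had 2.32 and 2.10, Ddx20, a part of the SMN complex, had 2.05 in WT, and Ddx42, which binds the splicing factor SF3b, had 2.00 in WT. Ddx5 was at 565, 628 and 546 CPM in the WT pellets and 412, 467 and 543 CPM in RNA, with a log2 occupancy of 1.45 (SE 0.14). Its lowest WT pellet library lay just above its highest WT RNA library, and scaled by library size its value of 0.29 did not pass (edgeR adjusted p = 0.133). In FMR1 KO its pellets were at 714, 397 and 704 CPM and its RNA at 519, 481 and 601 CPM, which overlap, with a log2 occupancy of 1.26 (SE 0.16) that did not pass when scaled by library size (0.18, edgeR adjusted p = 0.61). Ddx39b and Ddx17 had 1.44 and 1.18 in WT. Ddx39b was at 264, 297 and 210 CPM in the WT pellets and 189, 216 and 224 CPM in RNA, which overlap, and its value of 0.29 when scaled by library size did not pass (edgeR adjusted p = 0.14). Ddx17 was at 280, 284 and 229 CPM in the WT pellets and 248, 268 and 262 CPM in RNA, so its groups overlap on the CPM scale. Ddx41 was the splicing helicase that did not pass in either genotype.

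Of 16 helicases listed for ribosome biogenesis, 13 were higher and 1 lower in WT, and 11 higher and 1 lower in FMR1 KO, with medians of 1.00 and 0.89. Ddx10 was at 42.8, 42.6 and 44.1 CPM in the WT pellets and 17.7, 19.1 and 18.8 CPM in RNA, with 2.38 (SE 0.12). Ddx21, a nucleolar helicase of ribosomal RNA transcription and processing, had 1.89. Ddx18 went the other way. It was at 6.16, 6.05 and 6.21 CPM in the WT pellets and 21.3, 22.4 and 25 CPM in RNA, a log2 occupancy of -0.74 in WT (SE 0.13) and -0.76 in FMR1 KO (SE 0.11).

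Ddx24 (chr12:103407982-103425830, minus strand), another nucleolar helicase, had the second highest WT value, 2.94 (SE 0.65), and it rested on 1 library. Its WT pellet levels were 855, 171 and 194 CPM and its RNA levels 94, 123 and 143 CPM. Without WT pellet replicate 1 its occupancy was 1.71 (SE 0.21), still higher than in RNA (edgeR adjusted p = 0.00037), and in FMR1 KO it was 1.68 (SE 0.17). Ddx24 also stood alone in FMR1 KO fraction 5/6 replicate 1, at 2258 CPM beside 110 and 148, and in the library labelled WT fraction 5/6 replicate 3, at 423 CPM beside 102 and 64.6. The tallest Ddx24 peak in those 3 libraries was 27, 13 and 18, within the 0 to 23 of the other libraries or close to it. No tall peak was thus listed there on the Ddx24 transcript of the count table.

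The 4 helicases listed for mRNA export went both ways, with 2 higher and 1 lower in each genotype. Ddx19b, which releases mRNPs at the nuclear pore (chr8:111003188-111031751, minus strand), was at 7, 8.42 and 5.7 CPM in the WT pellets and 31.1, 37 and 35.8 CPM in RNA. The groups were far apart, and the log2 occupancy was -1.15 (SE 0.14) in WT and -1.53 (SE 0.16) in FMR1 KO, the lowest of the 51. Its neighbour and near copy Ddx19a did not pass in either genotype. The sources used here do not say how reads shared by such copies (Ddx19a and Ddx19b, Ddx39 and Ddx39b) were counted, so the split within these pairs is uncertain. Ddx25 had 0.95 in WT and Dhx30, needed for mitochondrial ribosome assembly, had 1.05, and both were below 0 when scaled by library size (-0.21 and -0.11).

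Ddx60 lost its WT call in 5 of 6 fits that left out 1 library, and Ddx4 its FMR1 KO call in 4 of 6. Of the smaller lists, with these calls counted, both mitochondrial helicases (Ddx28 and Dhx30, median 1.20), 2 of 3 sensors of viral RNA (median 0.94), 2 of 3 of the germ line (Ddx4, Ddx25 and Ddx43, median 1.13) and the DNA helicase Ddx11 (1.41) were higher in the WT pellet. By family, 27 of 35 Ddx and 13 of 16 Dhx genes were higher in WT, with medians of 1.18 and 1.10. RNA helicases outside the name rule, such as Eif4a1, Snrnp200 and Upf1, gave similar numbers, with 16 of 21 higher, 3 lower and a median of 1.26. The high occupancy was therefore not shown to be particular to the Ddx and Dhx genes. Helicase coding sequences are long, with a median of 2220 nt against 1338 nt over protein-coding genes. Across the 51 helicases, occupancy and log2 coding length had a Spearman rho of 0.342 in WT (0.369 across all genes), a description of genes that share the same libraries. The part of coding length in the occupancy was not tested.

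**Figure D3:**
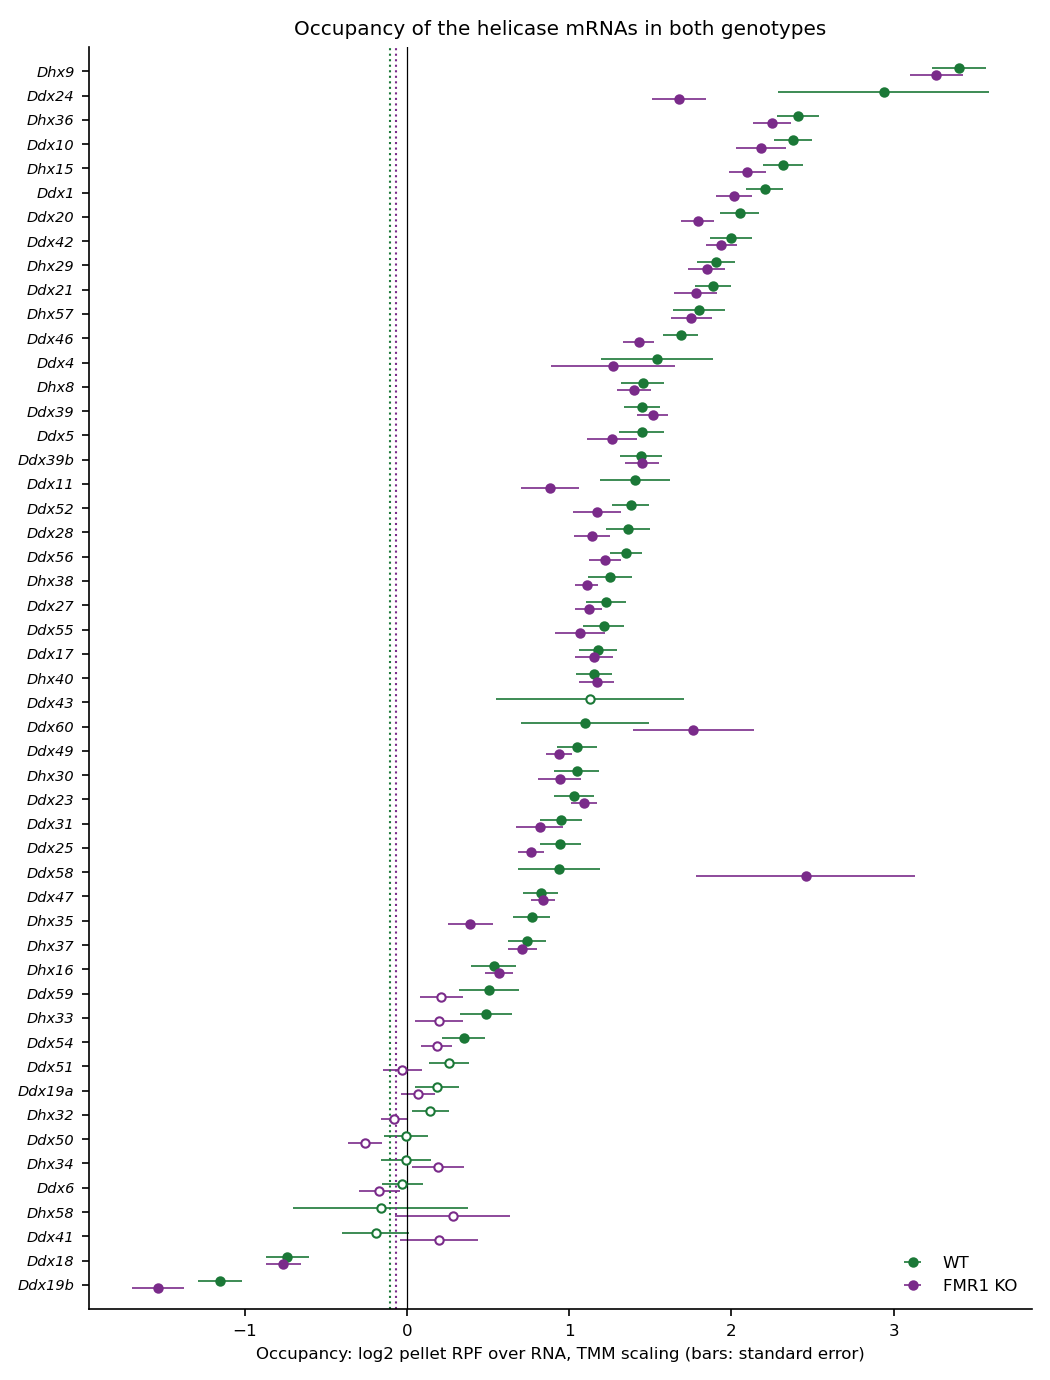
Log2 occupancy (pellet RPF over RNA, TMM scale, bars SE) of each helicase in WT (green) and FMR1 KO (purple), filled where edgeR's adjusted p is under 0.05, with dotted lines at the all-gene medians of -0.11 and -0.07. Dhx9 is highest at 3.41 and 3.26, Ddx19b lowest at -1.15 and -1.53, and most members lie to the right of the dotted lines.

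Enrichment, the pellet against fraction 5/6, asks which mRNAs go with the heavier clusters. With all 6 WT standard libraries, 0 of 48 helicases passed, against 0.023% of all genes, with 0 at an unadjusted p under 0.05 by edgeR and 0 by DESeq2. Without the library labelled WT fraction 5/6 replicate 3, 4 of 48 (Dhx9, Dhx57, Dhx29 and Ddx11) were higher in the pellet, where 7.78% of all genes were higher. In FMR1 KO the standard libraries gave 3 higher of 48 (Dhx9, Dhx57, Dhx29), against 9.11% of all genes, and 1 lower (Ddx59), against 2.4%. The FMR1 KO shares are below the background and the WT share without that library is near it. The helicase median was 0.02 in WT and -0.01 in FMR1 KO, near the -0.01 and -0.04 of all genes. Without that library the WT helicase median was 0.07 and that of all genes -0.01.

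Dhx9 was at 303 and 280 CPM in WT fraction 5/6 replicates 1 and 2 and at 768 CPM in the library labelled WT fraction 5/6 replicate 3, beside pellets of 651 to 682 CPM. In FMR1 KO fraction 5/6 it was at 233, 349 and 411 CPM, below the 475 to 876 CPM of its pellets. The library labelled replicate 3 was thus the only fraction 5/6 library of the standard preparation with a pellet level of Dhx9. The log2 enrichment was 0.58 (SE 0.39) with it and 1.09 (SE 0.21, edgeR adjusted p = 0.0392) without it in WT, and 1.39 (SE 0.22, edgeR adjusted p = 0.0118) in FMR1 KO. The FMR1 KO value lost its call when scaled by library size (1.09, edgeR adjusted p = 0.268) and with a replicate block (1.38, edgeR adjusted p = 0.0603). It also lost it without FMR1 KO fraction 5/6 replicate 1 (1.30, edgeR adjusted p = 0.0643).

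Dhx57 was at 87.5 and 56.5 CPM in WT fraction 5/6 replicates 1 and 2, 163 CPM in the library labelled replicate 3 and 151, 141 and 154 CPM in the WT pellets. In FMR1 KO it was at 74.7, 82.8 and 126 CPM in fraction 5/6 and 180, 102 and 173 CPM in the pellets, which overlap. Its log2 enrichment was 0.99 in FMR1 KO (SE 0.13, edgeR adjusted p = 0.00757) and 1.01 in WT without the library that goes against its label (SE 0.14, edgeR adjusted p = 0.0159). Dhx57 kept its call with each FMR1 KO library left out in turn and lost it when scaled by library size. Dhx29 had 0.77 in FMR1 KO (SE 0.15, edgeR adjusted p = 0.0263) and 0.68 in WT without that library (SE 0.10). Its FMR1 KO call was lost when scaled by library size (0.48, edgeR adjusted p = 0.43) and with a replicate block (0.77, edgeR adjusted p = 0.0898). The call was also lost in 4 of 6 fits that left out 1 library (pellet replicate 1 or 3, fraction 5/6 replicate 1 or 3). Ddx59 lost its call in each of those 6 fits. Ddx11, a DNA helicase of sister chromatid cohesion, had 0.79 in FMR1 KO (SE 0.22), which did not pass, and 1.49 in WT without that library (SE 0.21), at low levels of 1.59 to 7.24 CPM in WT.

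The low nuclease preparation repeated the comparison in separate preparations. In WT, 4 of 50 helicases were higher (Ddx11, Ddx58, Dhx57, Ddx24), against 14.3% of all genes, and 3 lower (Ddx50, Ddx52, Ddx47), against 8.59%. With the replicate numbers as a block, which paired these WT samples, 10 were called, 5 in each direction, against 32.3% of all genes called in either direction. The added calls were Dhx9, higher, and Ddx18 and Ddx19a, lower. In FMR1 KO, 7 of 51 were higher (Dhx9, Ddx11, Ddx58, Dhx57, Ddx24, Ddx10, Dhx29), against 8.82%, and 1 lower (Ddx54), against 11.8%. Dhx9 was at 655, 734 and 562 CPM in the WT pellets and 401, 447 and 269 CPM in WT fraction 5/6. In FMR1 KO it was at 762, 584 and 563 CPM and 332, 275 and 384 CPM, and in both genotypes no pellet library overlapped a fraction 5/6 library. Its log2 enrichment was 1.15 in FMR1 KO (SE 0.23, edgeR adjusted p = 0.0253) and 0.91 in WT (SE 0.26, edgeR adjusted p = 0.0525), and 0.94 with that block (edgeR adjusted p = 0.0271).

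At low nuclease Dhx57 had 0.62 in WT and 0.79 in FMR1 KO, and Dhx29 had 0.38 and 0.64, the first of which did not pass. Ddx11 had 1.06 and 1.13, and Ddx24 had 0.60 and 0.75 in these libraries, where no single library stood apart (181 to 201 CPM in the WT pellets, 113 to 145 CPM in WT fraction 5/6). Ddx58 (RIG-I, a sensor of viral RNA) had 0.85 and 1.10 at levels of 2.28 to 5.56 CPM. In the standard FMR1 KO pellet Ddx58 was at 4.8, 19.2 and 5.61 CPM, and replicate 2 set its FMR1 KO occupancy of 2.46, which was 1.17 without it. Ddx50, Ddx52 and Ddx47, helicases of ribosome biogenesis, fell by 0.57, 0.50 and 0.34 in WT. Ddx50 was at 30.3, 29.4 and 29.6 CPM in the WT pellets and 46, 44.3 and 53.7 CPM in fraction 5/6, well apart.

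These calls were close to the limit of 3 libraries a group. The WT low nuclease count was 0 without WT pellet replicate 1 and 0 without WT pellet replicate 3, where 6.86 and 5.87% of all genes were still called. It was 2 without WT pellet replicate 2, where Ddx50 and Ddx52 still passed, and 2 as well without WT fraction 5/6 replicate 1. The share of all genes called is not given for those 2 fits, so the counts are not read against it. The FMR1 KO low nuclease count was 0 without FMR1 KO pellet replicate 2 and 0 without any 1 of its 3 fraction 5/6 libraries, where 2.14 to 4.04% of all genes were. Scaled by library size, 4 were higher and 8 lower in WT, where 10.1% of all genes were higher and 12.4% lower, and 7 were higher and 12 lower in FMR1 KO, where 7.42% were higher and 27.3% lower.

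**Figure D4:**
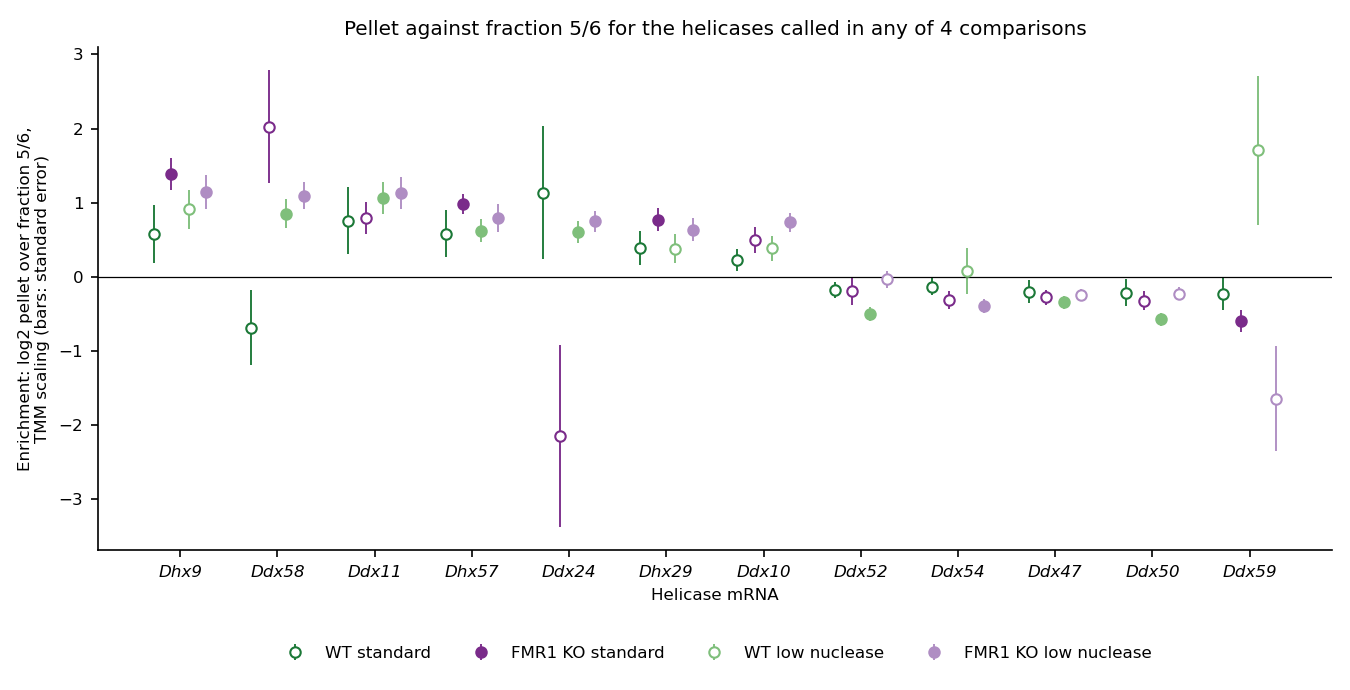
Log2 enrichment (pellet over fraction 5/6, TMM scale, bars SE) of the 12 helicases called in any of the 4 comparisons, filled where edgeR's adjusted p is under 0.05, green WT, purple FMR1 KO, pale for low nuclease. Dhx9, Dhx57, Dhx29, Ddx11 and Ddx10 lie above 0 in all 4, while Ddx24, Ddx58 and Ddx59 have wide bars in the comparisons where 1 library stood apart.

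The higher level of Dhx9 in the pellet can be read without any scaling by dividing its count by that of Ddx1 in the same library. Ddx1 was chosen after the values were seen, and the ratios are given as a description. Ddx1 itself had a high occupancy (2.21 in WT), which lowers a pellet ratio relative to the RNA ratio. Its enrichment was -0.19 in both genotypes of the standard preparation and -0.48 in WT and -0.04 in FMR1 KO at low nuclease, none of which passed by edgeR on the TMM scale. The WT low nuclease value passed by DESeq2 (-0.47, adjusted p = 0.0206) and when scaled by library size (-0.59, edgeR adjusted p = 0.032). A value below 0 widens the gap between pellet and fraction 5/6 ratios. Dhx9 over Ddx1 was 2.29 to 3.13 in the 12 pellet libraries of both genotypes and preparations and 0.793 to 1.19 in 11 fraction 5/6 libraries. It was 2.99 in the library labelled WT fraction 5/6 replicate 3, inside the pellet range. In the standard RNA it was 1.04 to 1.27. Pellet and fraction 5/6 were separate apart from that library. Dhx57 over Ddx1 was 0.537 to 0.686 in the pellets, 0.221 to 0.366 in the same 11 libraries and 0.634 in that library, while the standard RNA lay at 0.64 to 0.909. Dhx29 over Ddx1 was 0.243 to 0.334 in the pellets, 0.127 to 0.198 in the 11 libraries and 0.305 in that library. Ddx11 gave 0.0168 to 0.0264, 0.00641 to 0.0116 and 0.0282 in the same order.

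**Figure D5:**
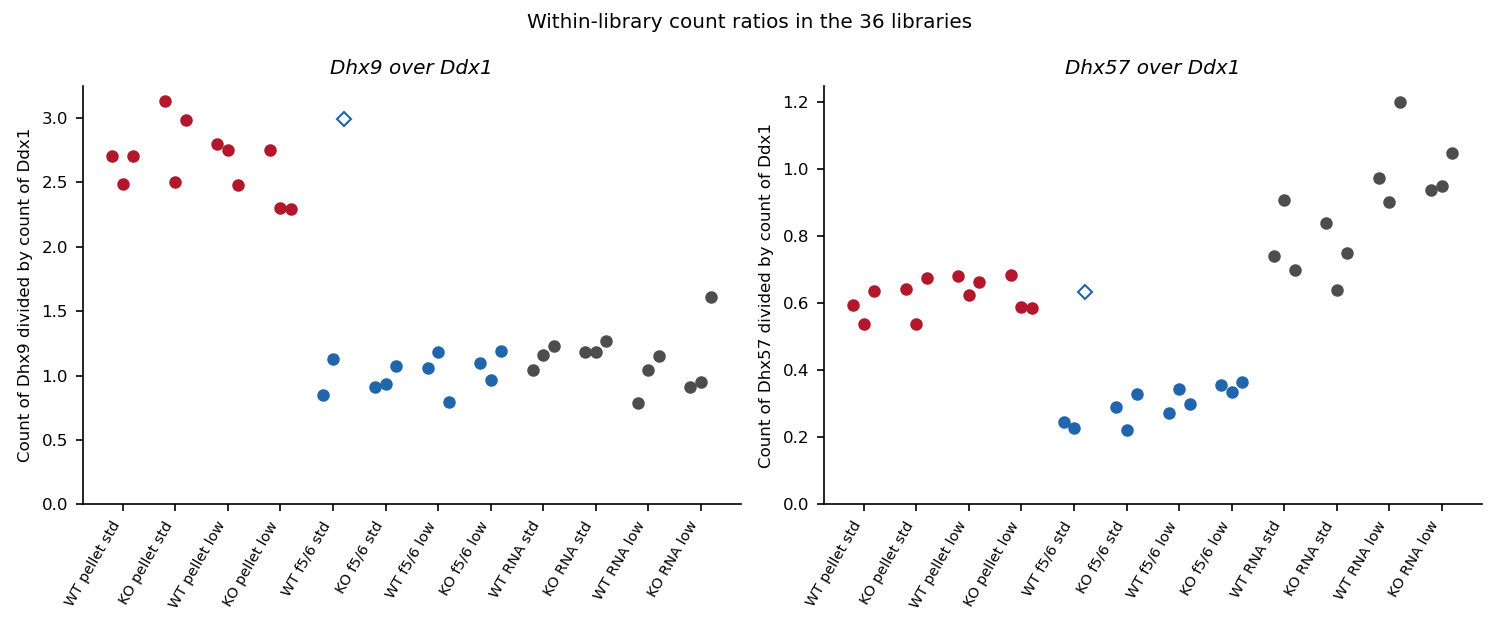
Count of Dhx9 (left) and Dhx57 (right) divided by the count of Ddx1 in each of the 36 libraries, red pellet, blue fraction 5/6 (f5/6), grey RNA, std standard nuclease, with an open diamond for the library labelled WT fraction 5/6 replicate 3. Dhx9 over Ddx1 is 2.29 to 3.13 in the pellets and 0.793 to 1.19 in the other fraction 5/6 libraries, and the diamond at 2.99 lies among the pellets.

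Coding length went with enrichment across genes. Dhx9, Dhx57 and Dhx29 have coding sequences of 4152, 4164 and 4095 nt, among the longer of the helicases (1281 to 5133 nt). Spearman's rho between log2 coding length and enrichment across the helicases was 0.66 in FMR1 KO standard, 0.389 in WT standard, 0.491 in WT low nuclease and 0.633 in FMR1 KO low nuclease. Across all genes it was 0.577, 0.422, 0.482 and 0.602 in the same order. With the library that goes against its label left out, the WT standard values were 0.492 across the helicases and 0.465 across all genes. Genes share the libraries and are not independent replicates, and the part of coding length in the enrichment of single helicases was not tested. The other RNA helicases had 10 of 18 higher in FMR1 KO standard with a median of 0.88, led by Snrnp200 with 2.25 and Ascc3 with 1.80.

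The loss of FMRP was compared within RNA, pellet and fraction 5/6. No helicase passed in the RNA (0 of 51, against 0.0736% of all genes), with 1 at an unadjusted p under 0.05 by edgeR and 0 called by DESeq2. That 1 was Dhx58, a low-level RNA sensor, at -0.59 (SE 0.25, edgeR adjusted p = 0.999). In the standard pellet 0 of 49 passed, against 0.015%, and in standard fraction 5/6 0 of 48, against 0%, with 0 at an unadjusted p under 0.05 by edgeR and 0 by DESeq2 in both. With the library that goes against its label left out, 0 passed in fraction 5/6, against 0.0301% of all genes, with 0 at an unadjusted p under 0.05 by edgeR. In the low nuclease pellet 0 of 50 passed, against 0.0197%, with 0 at an unadjusted p under 0.05 by edgeR, and in low nuclease fraction 5/6 0 of 51, against 0.0445%, with 4 by edgeR, all lower in FMR1 KO, and 0 called by DESeq2 in both.

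The differences between genotypes were small where the libraries were even. In the standard pellet the log2 difference, FMR1 KO over WT, was 0.10 for Dhx9 (SE 0.16), 0.07 for Ddx5 (SE 0.14), 0.06 for Ddx6 (SE 0.12), -0.03 for Ddx1 (SE 0.11), 0.02 for Dhx36 (SE 0.12) and 0.04 for Dhx57 (SE 0.14). The extremes were Ddx58 at 1.76 (SE 0.75) and Ddx24 at -1.13 (SE 0.64), the members with a single high pellet library in 1 genotype. FMR1 KO pellet replicate 2 was the lowest of its group for most of the mRNAs named here, for example Dhx9 at 475 CPM beside 876 and 765 and Ddx5 at 397 CPM beside 714 and 704. A p that misses the threshold does not show that the genotypes were alike.

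The difference in occupancy between genotypes passed for 0 of 51 (against 0.0673%, with 0 at an unadjusted p under 0.05 by edgeR and 0 by DESeq2) and that in enrichment for 0 of 49 (against 0%, with 2 by edgeR and 0 called by DESeq2). The 2 were Ddx58 and Ddx19b. The enrichment of Dhx9 was higher by 0.83 in FMR1 KO than in WT (SE 0.46, edgeR adjusted p = 0.896), and by 0.31 without the library labelled WT fraction 5/6 replicate 3 (SE 0.28, edgeR adjusted p = 0.938). For Dhx57 it was 0.44 (SE 0.35) with and 0.00 (SE 0.18) without that library.

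Standard and low nuclease pellets were compared over both genotypes. On the TMM scale 25 of 50 helicases were higher in the standard pellet, against 23.9% of all genes, and 2 lower, against 29%, with a median of 0.28 against -0.04 for all genes. The higher ones included 8 of 13 splicing helicases, 9 of 16 of ribosome biogenesis and 5 of 6 of the cytoplasmic list. The largest rises were Ddx24 with 1.07, Ddx55 with 0.60, Dhx9 with 0.59, Ddx11 with 0.56 and Ddx41 with 0.54, and Ddx19b and Ddx18 fell by 0.73 and 0.30. Ddx24 was 0.48 without WT pellet replicate 1, and the calls of Ddx24 and Ddx41 were lost in 6 and 8 of the 12 fits that left out 1 library. Scaled by library size, the median of all genes moved by -0.52, and 0 helicases were higher and 18 lower, where 3.16% of all genes were higher and 57.9% lower. Dhx9 itself was at 475 to 876 CPM in the 6 standard pellets and 562 to 762 CPM in the 6 low nuclease pellets, which overlap. Preparation, magnesium, digestion and the brains used changed together and cannot be told apart.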

How the data were processed

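Libraries were made from preparations of pooled brains, and replicates are the separate numbered samples of the labels. The RPF replicates were tagged with different linkers and pooled before reverse transcription. The p-values measure the spread between the numbered samples. Per the submitters' processing notes and the methods of the study, reads were trimmed (cutadapt 2.10), rRNA reads were removed (Bowtie2 2.3.5), the rest were mapped to GRCm38 (STAR 2.7.8a), duplicates were removed (Picard, SAMtools 1.19.2), and the authors deposited raw counts per gene (featureCounts 2.2.0). These sources do not say whether molecular identifiers were used in removing duplicates. Without them, the removal can cap short RPFs at strong peaks. The deposited peak lists give transcript, interval and height, read here as signal (RPF coverage). The methods of the study set a minimum for the top of a peak relative to the mean of its transcript, which was not tested on the lists. The top of a peak was placed at the centre of its interval.

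All 36 count columns were used and 0 were left unused. Rows without a gene name (92, at most 0.607% of counts) stayed out. Counts of protein-coding genes (GENCODE M21) passed filterByExpr over the compared groups and were fitted without a replicate block by edgeR 4.0.16 (R 4.3.3, limma 3.58.1) with TMM scaling and its quasi-likelihood test, and adjusted p-values (Benjamini-Hochberg, all genes of the fit) were read at 0.05. The fit was also run on counts simulated from 1 mean profile per comparison. These held no single-library jumps and no library against its label, so the fit was not tested for such cases. CPM used totals without Cdk8, and RPKM divided CPM by merged exon length. Every helicase was protein-coding, and 48 to 51 passed the count filter, depending on the comparison. Replicate numbers were taken as pairs where all 3 correlations of same-numbered deviations exceeded 0.1, which held for WT enrichment at low nuclease (0.188, 0.119 and 0.21). Sequences came from the reference genome of build GRCm38 and its annotation.

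Named were the 8 helicases with the highest WT RNA RPKM, the 5 largest rises and falls among those called in each comparison, those with peaks in all 6 pellets or with the most peaks, and 8 with known cytoplasmic or granule roles. Others named were chosen after their values were seen. The members and lists were chosen with earlier results of these data known. Alternatives were DESeq2 1.42.0, library size scaling, no count filter, a replicate block, low nuclease RNA, leaving out each library, other peak matching distances and only the taller peaks (at or above the median height of each library).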

Additional observations from a re-analysis of the deposited data

How the results depend on the processing

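Scaled by library size, the helicases called numbered 23 in FMR1 KO occupancy (70.2% of all genes called), 0 in FMR1 KO enrichment (1.31%), 12 in WT (22.5%) and 19 in FMR1 KO low nuclease enrichment (34.7%), and DESeq2 called 11 in WT low nuclease enrichment (31.7%). The cause was not tested. The TMM scale moved the summed helicase level to 1447 CPM in WT and 1555 in FMR1 KO standard RNA, 4357 in FMR1 KO fraction 5/6, and 3328, 3483, 3119 and 2808 in the low nuclease WT pellet, FMR1 KO pellet, WT fraction 5/6 and FMR1 KO fraction 5/6. Without Ddx24, chosen after seeing the data, the sum in FMR1 KO fraction 5/6 was 4315 CPM. Matching within 3 nt left 2 peaks and within 12 nt gave 8.

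Leaving out each library in turn gave 37 to 42 calls in WT and 36 to 39 in FMR1 KO occupancy. Enrichment had 0 to 4 in WT and 2 to 4 in FMR1 KO (2 without FMR1 KO pellet replicate 1 or 3, or fraction 5/6 replicate 1 or 3). Low nuclease enrichment had 0 to 5 in WT and 0 to 7 in FMR1 KO. There were 25 to 28 calls between preparations and 0 in each genotype comparison and interaction. Matched peaks numbered 4 to 8 (8 without FMR1 KO pellet replicate 2). The share of all genes called in the same fits is not given beside these ranges, so they show the spread of the counts only.

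The replicate block gave 10 calls in WT enrichment at low nuclease (32.3%), where the numbers paired the samples. Elsewhere the numbers were not taken as pairs by this rule, since not every pair correlated above 0.1. There, in the 2-group comparisons, 0 to 5 of 6 samples correlated best with their own number. This does not show that those samples were unpaired in the experiment. There the block gave 2 calls in FMR1 KO enrichment (Dhx57 and Ddx58, with 5% of all genes called), 10 in its low nuclease form (33.5%), 38 in each occupancy (61.1% in WT and 61.9% in FMR1 KO), 26 between preparations (50.5%) and 0 in the genotype comparisons and interactions.

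Signs turned under library size in WT occupancy for Dhx32 (-1.01), Ddx25 (-0.21), Dhx30 (-0.11) and Ddx49 (-0.10), in FMR1 KO occupancy for Ddx25 (-0.34), Dhx30 (-0.13) and Ddx49 (-0.16), and between preparations for Ddx21 (-0.11), Ddx42 (-0.14), Ddx5 (-0.49), Ddx41 (-0.0024), Dhx36 (-0.18), Dhx32 (-0.43), Ddx25 (-0.38), Dhx30 (-0.45), Ddx1 (-0.020), Dhx29 (-0.16) and Ddx49 (-0.00050). With low nuclease RNA, 36 helicases were called in WT (65.3% of all genes) and 33 in FMR1 KO (49.7%), and Ddx6 turned to 0.64 in WT and 0.82 in FMR1 KO and Dhx32 to 0.86 in FMR1 KO. Of the values of single named helicases, 2441 kept direction and call, 115 lost the call, 23 gained it and 21 turned sign. In the standard RPF libraries 11 helicases had a median under 10 CPM (Ddx4, Ddx11, Ddx18, Ddx19b, Ddx31, Ddx43, Ddx58, Ddx59, Ddx60, Dhx34, Dhx58) and rest on fewer counts than the others.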

Other observations

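With the uneven low nuclease RNA and levels under 5 CPM left out, single libraries stood apart for 3 helicases. There they exceeded the next library of the group by more than 3 times. Besides Ddx24 and Ddx58, this was Ddx59, at 88 CPM in the low nuclease WT pellet replicate 2 beside 7.61 and 8.04 CPM, and at 59.9 CPM in low nuclease FMR1 KO fraction 5/6 replicate 2 beside 10.1 and 12.7 CPM. Its enrichment at low nuclease was 1.71 in WT (SE 1.00) and -1.64 in FMR1 KO (SE 0.70), and -0.55 in WT and -0.42 in FMR1 KO without those libraries. In the standard FMR1 KO libraries, where none stood apart, it fell by 0.59 in the pellet (SE 0.15, edgeR adjusted p = 0.0485). That call was lost by DESeq2 (adjusted p = 0.102) and in each of 6 fits that left out 1 library. By edgeR it was also lost when scaled by library size (adjusted p = 0.253), without the count filter (adjusted p = 0.0563) and with a replicate block (adjusted p = 0.134).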
